A study of Coptotermes formosanus x Coptotermes gestroi and Coptotermes formosanus and Coptotermes gestroi with 67 samples.

Results

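The 28 genes described here are those whose level differed at least 2-fold between 2 hybrids of the same pair of termite species in every tissue and molting stage sampled. They were chosen from 15950 genes by their measured level. For each gene, CPM (the gene's count scaled to a common total over all genes of its profile) plus 1 had to be at least 2 times higher in Hybrid G than in Hybrid F in all 6 combinations of tissue and stage, or the reverse. In 17 genes Hybrid G was the higher hybrid (0.107% of all genes) and in 11 genes Hybrid F was (0.069%). The difference between the hybrids is therefore how these genes were found, and it is given below as a description, without a test. The parental species were not part of the choice, and the tests reported below compare their profiles. Alternative fits that also held the hybrid profiles are named as such.

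The hybrids were workers that the labels call Hybrid G and Hybrid F, both given as Coptotermes formosanus x Coptotermes gestroi. The parental species were C. gestroi and C. formosanus. Workers of each cross were sampled between molts (inter-molt), before a molt (pre-molt) and after it (post-molt), with the head sequenced apart from the body, that is, the thorax and the gutless abdomen. The species of the mother, the colonies, the age of the workers and the number pooled per sample are not stated in the labels, which name no treatment. The 67 labelled samples fall into 24 groups of cross, tissue and stage, 21 of them with 3 samples. The inter-molt bodies of C. gestroi and of C. formosanus had 1 sample each, with 9861833 and 10080438 counts. The pre-molt body of C. gestroi had 2 samples, with 19497806 counts. These parental groups entered the tests with the same standing as the others. The columns of the samples of a group were identical in every gene, so each group is 1 profile and no spread between workers or colonies could be measured. A mean ± SD over the 6 profiles of a cross describes 2 tissues and 3 stages, not replicates.

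Workers of subterranean termites forage, build and feed the colony, and they go on molting as workers. A hybrid carries copies of each gene from both parental species. Its level of a gene can lie between the parents, match one of them (dominance of that parent's level) or fall outside both (transgressive expression). Hybrids that differ in which species was the mother carry the same mix of nuclear genes on paired chromosomes but differ in mitochondria and in what the egg supplied. No names come with the IDs of the deposited table, so genes are called by ID and no role can be stated for any of them. For the same reason, head and body could not be checked against marker genes.

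Totals were between 22963367 and 37567642 counts in the 12 hybrid profiles and between 9861833 and 38338701 counts in the 12 parental ones. The limit that a count of 0 allows, 3 counts, is between 0.0782 and 0.3042 CPM in these profiles. In whole heads and bodies, fewer cells of a type and less RNA per cell cannot be told apart. CPM takes the column sum as the total, without the TMM factors that rescale the total of a profile (here 0.7399 to 1.3618). In the inter-molt body these were 1.0423 in Hybrid G and 1.2599 in Hybrid F, and counts by pair were not repeated with them. By CPM, the body between molts was where the hybrids differed most. There 594 genes were at least 2 times higher in Hybrid G and 1130 in Hybrid F. In the other 5 pairs 153 to 366 genes were higher in Hybrid G and 186 to 402 in Hybrid F. Leaving out the inter-molt body pair gave the same counts, 17 and 11 genes, because a gene that passed in the other 5 pairs passed there too.

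Genes that separated the hybrids in every pair were few. In at least 1 pair, 1133 genes were at least 2 times higher in Hybrid G and 1703 in Hybrid F. In at least 3 pairs this held for 136 and 175 genes, and in all 6 for 17 and 11. By the same rule, 335 genes were higher in C. gestroi than in C. formosanus (2.1%) and 664 lower (4.16%). Hybrid G was higher than C. gestroi in 1.99% of genes and lower in 0.144%, and higher than C. formosanus in 0.815% and lower in 0.15%. Hybrid F was higher than C. gestroi in 2.29% and lower in 0.263%, and higher than C. formosanus in 0.828% and lower in 0.339%. The 28 genes (0.176%) were thus far fewer than the genes that separated the parental species. Over the 9538 genes with at least 1 CPM in all 12 hybrid profiles, the median of log2(CPM + 1) in Hybrid G minus Hybrid F was -0.18 in inter-molt heads and -0.16 in inter-molt bodies, and between -0.079 and 0.021 in the other pairs. The 17 genes higher in Hybrid G had median differences of 1.756 to 2.04 over the 6 pairs, and the 11 higher in Hybrid F had -1.678 to -1.5.

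**Figure D1:**
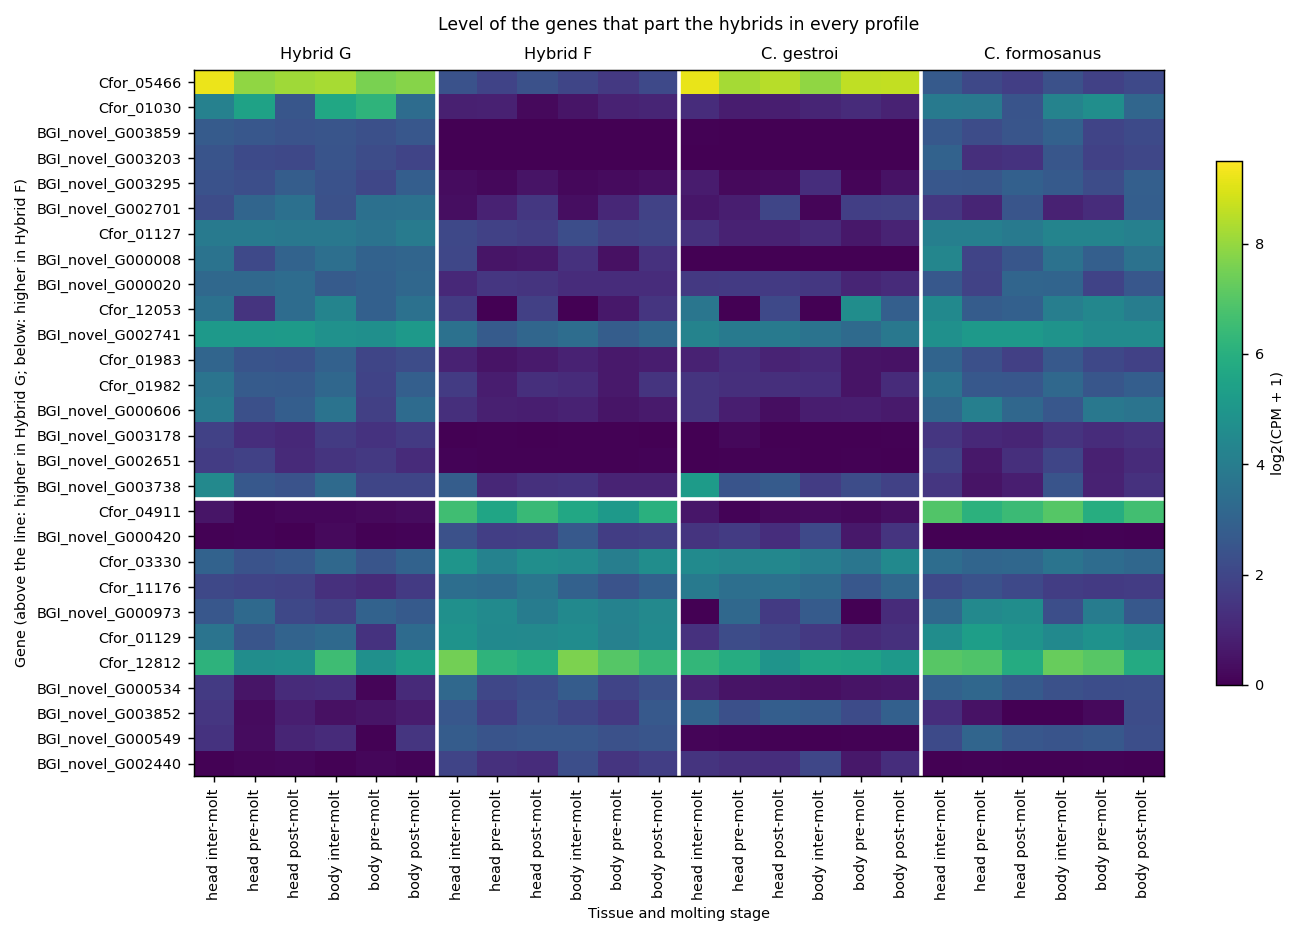
Level of the 28 genes as log2(CPM + 1) in all 24 profiles, 6 per cross, with Hybrid G and Hybrid F left of C. gestroi and C. formosanus; genes above the line were higher in Hybrid G (17) and those below it higher in Hybrid F (11). The row of Cfor_05466 is bright in Hybrid G and C. gestroi, and that of Cfor_04911 in Hybrid F and C. formosanus.

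By the ratio of CPM + 1, the largest separation was that of Cfor_05466. In Hybrid G it stood at 594, 243 and 284 CPM in inter-molt, pre-molt and post-molt heads and at 302, 192 and 219 CPM in the bodies. In Hybrid F it stood at 4.28, 2.77 and 4.17 CPM in the heads and at 2.92, 2.00 and 3.32 CPM in the bodies. Every Hybrid G profile was far above every Hybrid F profile, and the parental species split the same way. C. gestroi had 582, 294 and 353 CPM in heads and 244, 387 and 396 CPM in bodies, against 5.37, 3.15 and 2.43 CPM and 4.17, 2.58 and 3.25 CPM in C. formosanus. Hybrid F thus had the level of C. formosanus. Hybrid G was near C. gestroi in the heads, and in the pre-molt and post-molt bodies it was lower, with 192 and 219 CPM in Hybrid G against 387 and 396 CPM in C. gestroi. Over all 6 profiles the ratio of Hybrid G to Hybrid F was 90.3 (95% exact interval 83.5 to 97.7, counting error only).

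The mirror case was Cfor_04911, which was nearly uncounted in Hybrid G. Its levels there were 0.435, 0.0563 and 0.127 CPM in inter-molt, pre-molt and post-molt heads and 0.111, 0.168 and 0.247 CPM in bodies. Hybrid F had 94.9, 46.5 and 85.6 CPM in heads and 51.1, 34.5 and 64.1 CPM in bodies. The ranges did not come near each other, and the ratio of Hybrid G to Hybrid F was 0.0029 (0.002 to 0.00408). C. gestroi had 0.0669 to 0.508 CPM and C. formosanus 59.8 to 128 CPM. Here again Hybrid G lay at the C. gestroi level, while Hybrid F had 62.8 ± 23.5 CPM, below the 93.4 ± 27.0 CPM of C. formosanus (SD over 6 profiles). The ranges of Hybrid F and C. formosanus overlapped. In Cfor_05466 and Cfor_04911 alike Hybrid G was nearer to C. gestroi, but the species with the high level was the opposite one.

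By the ratio of CPM + 1, which draws low genes together, these 2 genes stood apart from the other 26. Their smallest difference of log2(CPM + 1) over the 6 pairs was 5.67 in Cfor_05466 and, in the other direction, -4.92 in Cfor_04911. The median over all 28 genes of each gene's median ratio of CPM + 1 in the higher over the lower hybrid was 3.57, with a range of 2.41 to 64.58. In 19 genes the smallest of the 6 ratios was under 3. That smallest ratio came from the pre-molt body in 9 genes, the post-molt body in 7, the post-molt head and the inter-molt body in 5 each, the pre-molt head in 2 and the inter-molt head in 0. In 25 genes the 6 profiles of one hybrid all lay on one side of the 6 of the other. The choice of genes favours this, and the share over all genes was not counted. The ranges overlapped in Cfor_12053, BGI_novel_G003738 and Cfor_12812, where levels varied more between tissues and stages.

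**Figure D2:**
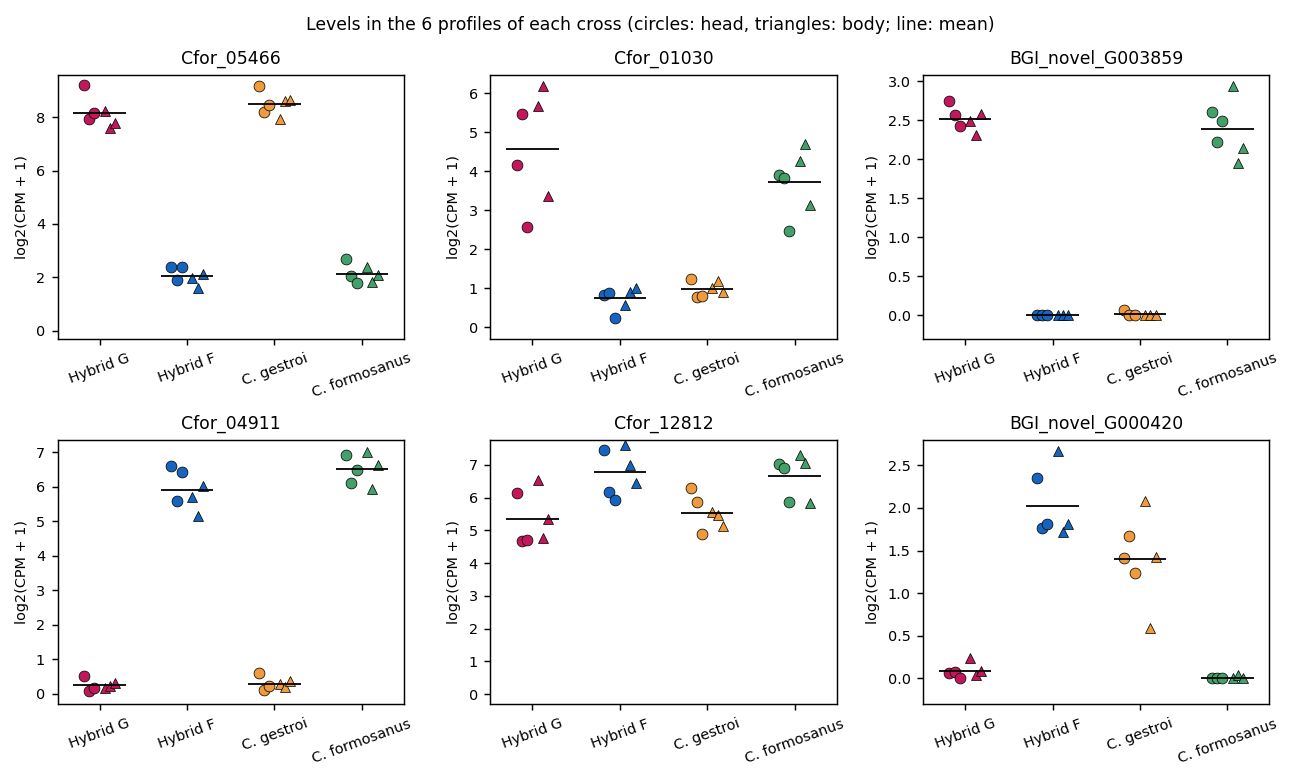
Level as log2(CPM + 1) of 6 genes with large differences or high levels, one panel per gene, with Hybrid G left of Hybrid F and both left of C. gestroi and C. formosanus; each mark is 1 profile (circles heads, triangles bodies, each as inter-molt, pre-molt and post-molt from left) and the line is their mean. In the panel of Cfor_05466 the 6 Hybrid G marks (192 to 594 CPM) lie far above the 6 Hybrid F marks (2.00 to 4.28 CPM).

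Each hybrid was then placed against the parental levels by its mean of log2(CPM + 1) over 6 profiles. A hybrid within 0.5 of a parent was called near that parent, one beyond both parents by more than 0.5 was called outside, and the rest were called between. On this scale genes of low level are drawn together. Hybrid G was near C. formosanus in 15 of the 28 genes and near C. gestroi in 5, whereas Hybrid F was near C. gestroi in 14 and near C. formosanus in 6. Together, 10 genes had Hybrid G near C. formosanus and Hybrid F near C. gestroi, and 4 had Hybrid G near C. gestroi and Hybrid F near C. formosanus. In 8 genes a hybrid lay outside both parents, and in the other 6 a hybrid lay between them. With only the 3 head profiles of each cross 24 of the 28 genes kept both places, and with the 3 body profiles 21 did. With the inter-molt, pre-molt or post-molt profiles alone (a head and a body per cross), 21, 16 and 19 did. Beyond the genes that the naming rule gives, the genes named in these 4 classes were chosen after their values were seen.

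**Figure D3:**
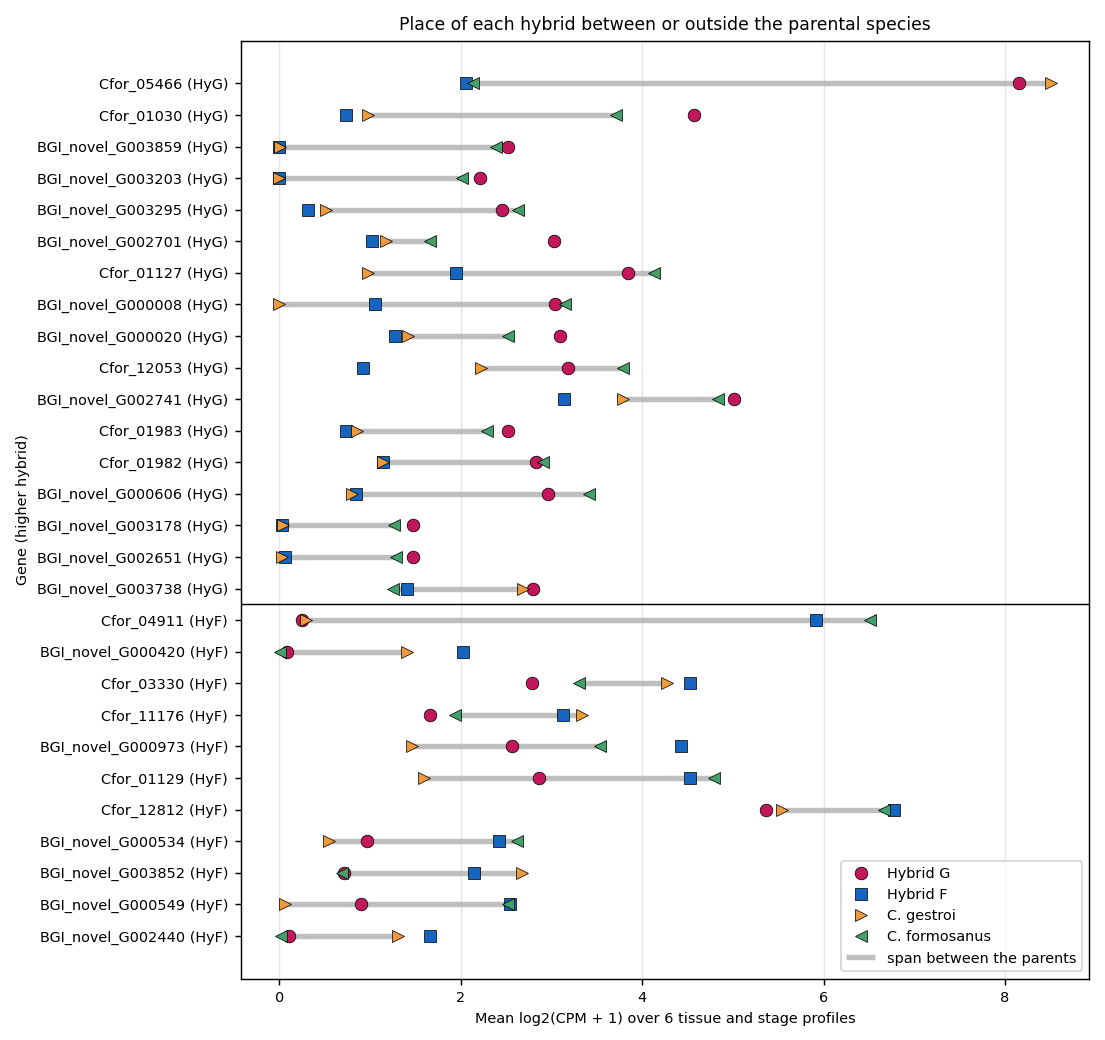
Mean log2(CPM + 1) over 6 profiles of each gene in Hybrid G (circles), Hybrid F (squares), C. gestroi and C. formosanus (triangles), with a grey bar between the parents and the line parting genes higher in Hybrid G (above) from those higher in Hybrid F. In 10 genes Hybrid G sits by C. formosanus and Hybrid F by C. gestroi, and in 4 the other way round. In Cfor_01030 Hybrid G lies above the bar, at 4.566 against 3.714 in C. formosanus. In Cfor_03330 Hybrid G lies only a little below the bar, at 2.789 against 3.303 in C. formosanus. With body, inter-molt or post-molt profiles alone Hybrid G was near C. formosanus in Cfor_03330, and with post-molt profiles alone in Cfor_01030.

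In the class of 10 genes, 8 were higher in Hybrid G, which by the definition of the class are genes with C. gestroi below C. formosanus. BGI_novel_G003859 stood at 5.71, 4.95 and 4.38 CPM in inter-molt, pre-molt and post-molt heads of Hybrid G and at 4.64, 3.98 and 4.95 CPM in the bodies. No read was counted for it in any Hybrid F profile. C. gestroi had a single count over its 6 profiles and C. formosanus 743. Taken against a floor of 3 counts over the 6 Hybrid F profiles, Hybrid G was at least 318-fold higher. BGI_novel_G003203 had the same form, with 4.49, 3.38 and 3.12 CPM in Hybrid G heads and 4.59, 3.59 and 2.87 CPM in the bodies. It had no count in Hybrid F or C. gestroi, and 1.41 to 6.93 CPM in C. formosanus. Against the same floor Hybrid G was 243-fold higher than Hybrid F, with a lower limit of 197. Both genes were thus counted in Hybrid G at the level of C. formosanus and were without counts in Hybrid F.

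The 6 others of this kind were low but counted in Hybrid F. BGI_novel_G003295 had 3.08 to 6.12 CPM in Hybrid G and 0.141 to 0.421 CPM in Hybrid F, with 0.0995 to 1.34 CPM in C. gestroi and 3.64 to 6.46 CPM in C. formosanus. BGI_novel_G000606 had 2.48 to 14.0 CPM in Hybrid G and 0.435 to 1.41 CPM in Hybrid F. BGI_novel_G003178 and BGI_novel_G002651 were the lowest of the class, with 1.16 to 2.57 and 1.18 to 2.62 CPM in Hybrid G. In Hybrid F they had 4.45 and 8 expected counts in all. The ratios of Hybrid G to Hybrid F were 80.01 (34.4 to 328) and 46.1 (23.1 to 108), with intervals from rounded counts. Cfor_01982 and Cfor_01983, which have consecutive numbers, had 2.78 to 11.5 and 2.92 to 7.58 CPM in Hybrid G. Their levels in Hybrid F were 0.559 to 2.11 and 0.407 to 0.897 CPM. By CPM, both were highest in the inter-molt head and lowest in the pre-molt body of Hybrid G. For Cfor_01983 this order depends on the scaling, with a TMM factor of 0.7399 in the pre-molt body.

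The remaining genes of the class were higher in Hybrid F and, again by definition, in C. gestroi. Cfor_11176 stood at 3.14, 2.87 and 2.67 CPM in inter-molt, pre-molt and post-molt heads of Hybrid G and at 1.52, 1.18 and 2.04 CPM in the bodies. Hybrid F had 9.90, 8.90 and 12.2 CPM in heads and 6.66, 4.39 and 6.46 CPM in bodies, a ratio of Hybrid G to Hybrid F of 0.275 (0.246 to 0.307). In both hybrids the heads lay above the bodies. C. gestroi had 4.97 to 14.1 CPM and C. formosanus 2.09 to 4.24 CPM. BGI_novel_G002440 had 0.0370 to 0.127 CPM in Hybrid G, 15 counts in all, and 1.28 to 3.84 CPM in Hybrid F. C. gestroi had 0.513 to 3.04 CPM of it, and C. formosanus had 3 counts over its 6 profiles.

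The 4 genes with Hybrid G near C. gestroi and Hybrid F near C. formosanus included the pair with the highest levels, Cfor_05466 and Cfor_12812. Cfor_05466 is given above. BGI_novel_G003738 was also higher in Hybrid G, with 21.2, 5.09 and 4.36 CPM in inter-molt, pre-molt and post-molt heads and 8.86, 2.93 and 2.93 CPM in bodies. Hybrid F had 6.01, 1.10 and 1.48 CPM in heads and 1.60, 0.917 and 0.917 CPM in bodies. The inter-molt head was its highest profile in both hybrids and in C. gestroi, which had 35.8 CPM there and 2.24 to 5.58 CPM elsewhere. C. formosanus had 0.408 to 4.56 CPM and was highest in the inter-molt body, a group of 1 sample. With body profiles alone Hybrid G was above both parents in BGI_novel_G003738. With head profiles alone Hybrid F was between them.

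Higher in Hybrid F were Cfor_12812 and BGI_novel_G000534. Cfor_12812 had 69.6, 24.4 and 25.2 CPM in inter-molt, pre-molt and post-molt heads of Hybrid G and 92.3, 26.4 and 39.3 CPM in the bodies. Hybrid F had 176, 70.9 and 59.5 CPM in heads and 196, 128 and 86.8 CPM in bodies. By CPM it was highest between molts in both hybrids. In Hybrid F bodies this depends on the scaling, with TMM factors of 1.2599 between molts and 0.7929 before the molt. The ratio of Hybrid G to Hybrid F was 0.371 (0.362 to 0.38). C. gestroi had 47.9 ± 17.4 CPM, close to the 46.2 ± 28.4 CPM of Hybrid G, and C. formosanus had 108 ± 42.3 CPM, close to the 119 ± 56.7 CPM of Hybrid F (SD over 6 profiles). With head or pre-molt profiles alone Hybrid G was below both parents. In pre-molt heads and bodies C. gestroi had 57.6 and 43.4 CPM, against 24.4 and 26.4 CPM in Hybrid G. BGI_novel_G000534 had 0.0842 to 2.05 CPM in Hybrid G and 2.82 to 8.24 CPM in Hybrid F. Its parental levels were 0.304 to 0.831 CPM in C. gestroi and 3.73 to 7.99 CPM in C. formosanus. With the profiles of any single stage alone, a hybrid lay between the parents in BGI_novel_G000534.

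Among the 8 genes in which a hybrid lay outside both parents, 5 had a hybrid above them. Cfor_01030 stood at 16.9, 42.9 and 4.90 CPM in inter-molt, pre-molt and post-molt heads of Hybrid G and at 50.0, 71.7 and 9.26 CPM in the bodies. Hybrid F had 0.780, 0.820 and 0.181 CPM in heads and 0.468, 0.879 and 0.997 CPM in bodies. C. gestroi stayed at 0.714 to 1.33 CPM, near Hybrid F. C. formosanus had 14.1, 13.3 and 4.48 CPM in heads and 18.1, 25.04 and 7.74 CPM in bodies. Hybrid G was above C. formosanus in all 6 pairs, most in the pre-molt profiles, although the 2 ranges overlapped. The post-molt profiles were the lowest in both tissues of Hybrid G and of C. formosanus. The ratio of Hybrid G to Hybrid F was 48.7 (41.2 to 57.9).

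BGI_novel_G002701 and BGI_novel_G000020 were the other genes with Hybrid G above both parents. BGI_novel_G002701 had 3.57, 7.47 and 10.4 CPM in inter-molt, pre-molt and post-molt heads of Hybrid G and 4.10, 10.3 and 10.6 CPM in the bodies. Hybrid F had 0.276, 0.898 and 1.94 CPM in heads and 0.262, 1.09 and 2.66 CPM in bodies. By CPM, the inter-molt profile was the lowest and the post-molt profile the highest in both hybrids and both tissues. In Hybrid G bodies the order of pre-molt and post-molt depends on the scaling, with TMM factors of 0.7399 and 1.056. C. gestroi had 0.101 to 2.99 CPM and C. formosanus 0.893 to 6.21 CPM. BGI_novel_G000020 had 5.61 to 9.16 CPM in Hybrid G and 1.11 to 1.81 CPM in Hybrid F, with 0.955 to 2.07 CPM in C. gestroi and 2.65 to 7.49 CPM in C. formosanus. With body, inter-molt or post-molt profiles alone Hybrid G was near C. formosanus in BGI_novel_G000020. In the inter-molt body it was lower, at 5.61 CPM against 7.43 CPM in C. formosanus.

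Hybrid F was above both parents in BGI_novel_G000420 and BGI_novel_G000973. BGI_novel_G000420 ran from no count to 0.185 CPM in Hybrid G, 11 counts in all. Hybrid F had 4.10, 2.39 and 2.505 CPM in inter-molt, pre-molt and post-molt heads and 5.35, 2.29 and 2.52 CPM in bodies. The ratio of Hybrid G to Hybrid F was 0.0192 (0.00952 to 0.0345). C. gestroi had 0.513 to 3.24 CPM and C. formosanus a single count. Hybrid G thus lay near C. formosanus, and Hybrid F lay above C. gestroi. With post-molt profiles alone Hybrid F was near C. gestroi. BGI_novel_G000973 had 2.51 to 8.39 CPM in Hybrid G and 15.0 to 26.5 CPM in Hybrid F. Its parental levels varied widely, from no count to 8.35 CPM in C. gestroi and between 3.91 and 24.2 CPM in C. formosanus. With head or pre-molt profiles alone Hybrid F was near C. formosanus in BGI_novel_G000973.

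In 3 genes the lower hybrid lay below both parents. Cfor_03330 had 4.43 to 8.20 CPM in Hybrid G and 15.9 to 30.1 CPM in Hybrid F, against 12.2 to 22.2 CPM in C. gestroi and 7.57 to 11.5 CPM in C. formosanus. Hybrid G was below C. formosanus in every pair, and Hybrid F ranged over and above C. gestroi. BGI_novel_G002741 was lowest in Hybrid F, with 25.4 to 35.3 CPM in Hybrid G and 5.67 to 10.8 CPM in Hybrid F. C. gestroi had 8.69 to 18.2 CPM and C. formosanus 22.7 to 34.0 CPM. With body or inter-molt profiles alone Hybrid F was near C. gestroi in BGI_novel_G002741. Cfor_12053 had 1.70 to 18.4 CPM in Hybrid G, and Hybrid F ran from no count to 2.49 CPM. C. gestroi ran from no count to 24.3 CPM, so that its place against the parents rests on uneven profiles.

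The other 6 genes had a hybrid between the parents. Cfor_01127 had 11.3 to 14.4 CPM in Hybrid G and 2.31 to 3.69 CPM in Hybrid F. C. gestroi had 0.540 to 1.46 CPM and C. formosanus 13.7 to 18.7 CPM, so that Hybrid F lay above all C. gestroi profiles and Hybrid G reached into the range of C. formosanus. BGI_novel_G000008 had 3.24 to 11.2 CPM in Hybrid G and 0.357 to 3.10 CPM in Hybrid F. It had no count in C. gestroi and 2.90 to 19.6 CPM in C. formosanus. Cfor_01129 had 1.65 to 11.7 CPM in Hybrid G and 17.0 to 28.5 CPM in Hybrid F. Its parental levels were 1.19 to 3.62 CPM in C. gestroi and 21.6 to 39.0 CPM in C. formosanus. Hybrid G was the intermediate one here and Hybrid F the one near C. formosanus.

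BGI_novel_G000549 followed the pattern of Cfor_01129, with 0.0281 to 1.79 CPM in Hybrid G and 4.15 to 5.79 CPM in Hybrid F. C. gestroi had at most 0.0924 CPM and C. formosanus 3.43 to 7.47 CPM. In the pre-molt body BGI_novel_G000549, Cfor_01129 and BGI_novel_G000534 were each at their lowest Hybrid G level, at 0.0281, 1.65 and 0.0842 CPM. BGI_novel_G003852 had 0.220 to 1.86 CPM in Hybrid G and 1.96 to 5.34 CPM in Hybrid F. Its parental levels were 3.48 to 7.22 CPM in C. gestroi and from no count to 3.57 CPM in C. formosanus. Cfor_04911, given above, was the last of these genes.

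The parental species were compared to see whether the genes that separate the hybrids also separate the species. The 12 parental profiles were fitted with the 6 combinations of tissue and stage as blocks (edgeR quasi-likelihood test, Benjamini-Hochberg adjusted p under 0.05). Of all 12361 genes tested, 52.2% passed, 25.6% higher and 26.7% lower in C. gestroi. All 28 genes were tested, and 25 of them (89.3%) passed, 7 higher and 18 lower in C. gestroi. Of the 17 genes higher in Hybrid G, 2 were higher and 13 lower in C. gestroi, with a median log2 fold change of -3.55 of C. gestroi over C. formosanus. Of the 11 higher in Hybrid F, 5 were higher and 5 lower, with a median of -1.06. The medians were the same when genes with 3 or fewer counts in a species were set to the floor, and the median over all genes tested was -0.004. The p-values measure how far a difference recurred over tissues and stages. The spread from worker to worker or colony to colony does not enter them. A species difference in the sample and one in how well reads of each species were assigned to the annotation cannot be told apart.

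Genes higher in Hybrid G were thus mostly lower in C. gestroi and those higher in Hybrid F were split evenly, and the difference between these lists was not tested. The largest differences among well counted genes were those of Cfor_05466 and Cfor_04911. Cfor_05466 averaged 376 ± 116 CPM in C. gestroi and 3.49 ± 1.11 CPM in C. formosanus (SD over 6 profiles), a log2 fold change of 6.84 ± 0.25 (SE; adjusted p = 9.7e-06, edgeR), higher in 6 of 6 pairs. Cfor_04911 averaged 0.231 ± 0.152 CPM in C. gestroi and 93.4 ± 27.0 CPM in C. formosanus, a log2 fold change of -8.61 ± 0.23 (adjusted p = 3.43e-06, edgeR). Cfor_01127 and Cfor_01129 had log2 fold changes of -4.02 ± 0.21 and -3.67 ± 0.18 (adjusted p by edgeR 3.72e-05 and 3.58e-05), and Cfor_01030 one of -3.55 ± 0.27 (adjusted p = 0.000107, edgeR). All 3 were lower in C. gestroi in 6 of 6 pairs, yet Cfor_01127 and Cfor_01030 were higher in Hybrid G and Cfor_01129 higher in Hybrid F.

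Smaller differences were those of Cfor_03330, with a log2 fold change of 1.12 ± 0.16 (adjusted p = 0.00111, edgeR), of Cfor_11176, with 1.76 ± 0.17 (adjusted p = 0.000253, edgeR), and of Cfor_12812, with -1.06 ± 0.14 (adjusted p = 0.000815, edgeR). In 6 genes a species had 3 or fewer counts, and the fitted fold change depends on the count added to the zeros. For these the ratio of pooled counts is given. BGI_novel_G003203 and BGI_novel_G000008 were without a count in C. gestroi. Taken against a floor of 3 counts there, C. formosanus was 140.3-fold and 394-fold higher. C. formosanus exceeded C. gestroi by a ratio of 556.6 in BGI_novel_G003859 (95% exact interval 99.58 to 22000) and of 61.92 in BGI_novel_G002651 (20.94 to 302). C. gestroi exceeded C. formosanus by a ratio of 307 in BGI_novel_G000420 (54.56 to 12200) and of 88.11 in BGI_novel_G002440 (29.71 to 431).

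Not past the threshold were BGI_novel_G000973, with a log2 fold change of -2.92 ± 1.22 (adjusted p = 0.0812, edgeR), Cfor_12053, with -1.87 ± 1.09 (adjusted p = 0.188, edgeR), and BGI_novel_G002701, with -0.83 ± 0.49 (adjusted p = 0.194, edgeR). In each of them a hybrid lay outside both parents. Their levels varied between tissues and stages of a species, and this does not show that the species were alike. The call of BGI_novel_G003738, with a log2 fold change of 2.23 ± 0.75 (adjusted p = 0.0407, edgeR), was lost without any one of 4 pairs (all head pairs and the pre-molt body), and in a fit of the bodies of all 4 crosses, hybrids included, its log2 fold change was 0.73.

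**Figure D4:**
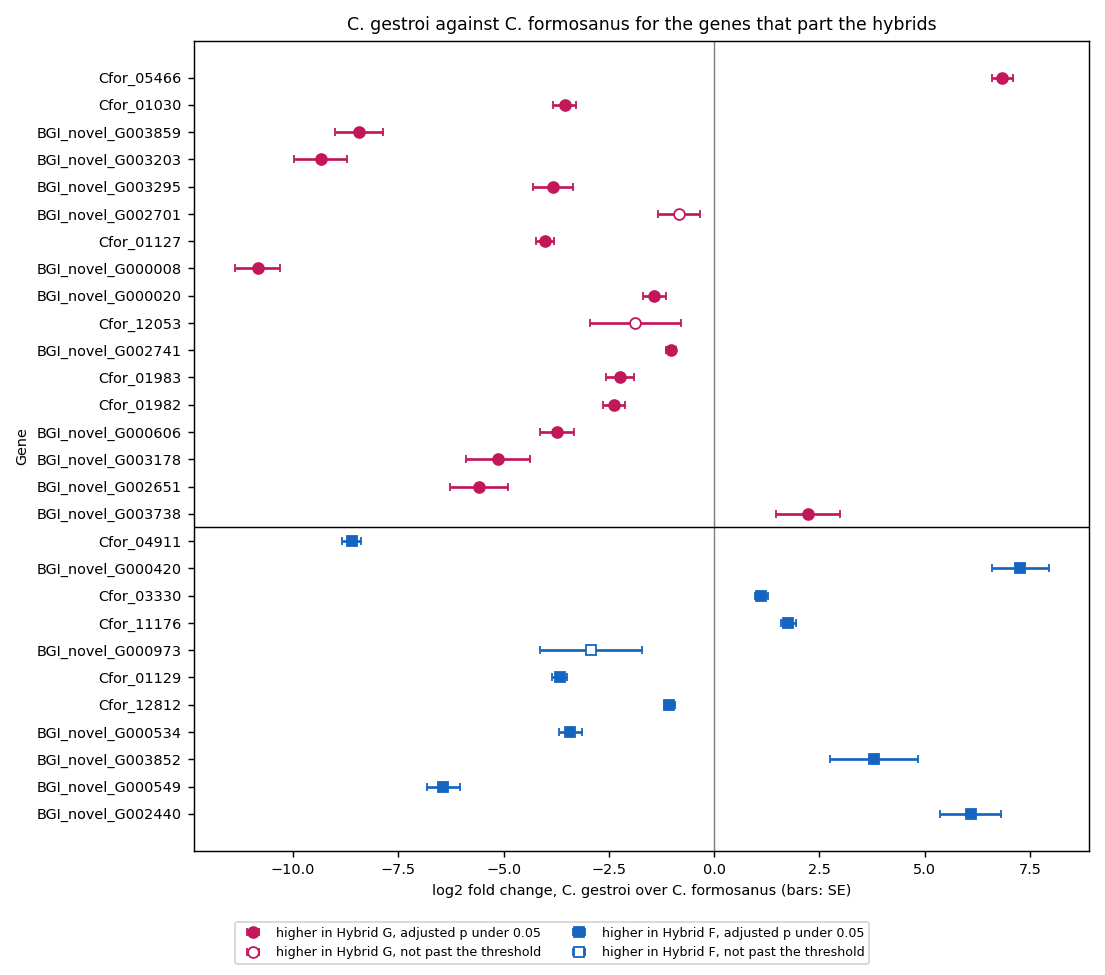
Log2 fold change of C. gestroi over C. formosanus with its SE for the 28 genes, from the fit of 12 parental profiles; filled marks passed the adjusted p threshold (25 genes) and open marks did not (3 genes). Of the genes higher in Hybrid G, 2 lie right of 0 among those that passed and 13 left; of those higher in Hybrid F, 5 lie on each side. Values of genes with 3 or fewer counts in a species depend on the count added to zeros.

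Few of the genes passed the tests between molting stages of the parental species. Some were low or uneven in a species, so a missing call does not show a steady level. The SE of the log2 fold change of pre-molt against inter-molt was 1.82 in Cfor_12053 and 1.74 in BGI_novel_G000973. In Cfor_12812 it was 0.15. The share called among genes of like level and spread was not counted. Between pre-molt and inter-molt profiles 17.9% of the 13001 genes tested passed (10.8% higher and 7.05% lower before the molt), and 0 of the 28 did (edgeR, 3 at an unadjusted p under 0.05; DESeq2 called 3). Between post-molt and inter-molt profiles 16.5% of all genes passed (9.99% higher and 6.54% lower after the molt) and 2 of the 28. BGI_novel_G002701, by CPM highest after the molt in the hybrids too, was among them. Its log2 fold change was 2.72, higher after the molt (adjusted p = 0.0413, edgeR). That call was lost on leaving out most single profiles, and with edgeR it held only without the C. gestroi inter-molt or pre-molt body or the C. formosanus inter-molt or pre-molt head. Cfor_12812 was lower after the molt, with a log2 fold change of -0.80 (adjusted p = 0.00891, edgeR), and this held whichever profile was left out.

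Between post-molt and pre-molt profiles 8.28% of all genes passed (3.4% higher and 4.88% lower after the molt) and 1 of the 28. This was again Cfor_12812, with a log2 fold change of -0.91 (adjusted p = 0.00809, edgeR). In C. gestroi it had 77.1, 57.6 and 28.9 CPM in inter-molt, pre-molt and post-molt heads and 46.0, 43.4 and 34.2 CPM in bodies. In C. formosanus it had 131, 118 and 57.0 CPM in heads and 157, 131 and 55.6 CPM in bodies. The post-molt profile was the lowest in both tissues of both species. By CPM, the pre-molt profile was the lowest in Hybrid G, close to the post-molt one in the head and below it in the body. The TMM factors of these pre-molt and post-molt profiles were 0.8652 and 0.9035 in heads and 0.7399 and 1.056 in bodies. Dividing CPM by them turns the order in the head and narrows the gap in the body. No difference from the parental species was tested.

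Between head and body of the parental species 21.8% of 12361 genes passed (11.0% higher and 10.9% lower in the head) and 1 of the 28. Cfor_11176 was higher in the head, with a log2 fold change of 0.62 ± 0.15 (adjusted p = 0.0246, edgeR). Heads of C. gestroi had 14.1, 10.01 and 10.8 CPM in inter-molt, pre-molt and post-molt workers, and bodies 8.82, 4.97 and 7.99 CPM. Heads of C. formosanus had 3.25, 4.24 and 3.25 CPM and bodies 2.28, 2.09 and 2.23 CPM. The head was the higher tissue in all 6 parental pairs. The call was lost without the pre-molt or the post-molt pair of either species. For the genes not called, this does not show that head and body were alike.

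Most genes that separate the parental species did not separate the hybrids. In 999 genes the parental species were at least 2-fold apart in all 6 pairs, and 13 of these (1.3%) are among the 28. These 13 are 46.4% of the 28, against 6.26% of all genes with the parental species so far apart. Genes low in every cross cannot be 2-fold apart on CPM + 1, and a share among genes of like level was not counted. On a scale with C. formosanus at 0 and C. gestroi at 1, the median of the 999 genes was 0.38 in Hybrid G (5th to 95th percentile 0.08 to 0.8) and 0.37 in Hybrid F (0.03 to 0.82). In 958 of them the hybrids were less than 2-fold apart in mean level. Both hybrids thus usually lay between the parents. On the same scale Cfor_05466 was at 0.94 in Hybrid G and -0.01 in Hybrid F, and Cfor_01030 at -0.31 and 1.09.

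Some features set the genes beside the rest of the table. The BGI_novel numbers, given to genes outside the Cfor series, made up 17 of the 28 (60.7%), against 20.5% of the 10207 genes with at least 1 CPM in all 6 profiles of a hybrid and 24.8% of all genes. A profile listed as NA occurred in 7 of the 28, against 2.3% and 20.9% of those genes. The median of their mean level in the higher hybrid was 7.66 CPM, against 30.6 and 10.9 CPM. NA and level are not independent of the choice, which read NA as 0 and used the level. Without genes that had an NA in a hybrid, 15 genes were higher in Hybrid G and 11 in Hybrid F. The median length was 2667 bases, against 3449 and 2439. Cfor_05466 had 340 bases, Cfor_04911 201 and Cfor_11176 359, so that 3 of the 28 were under 400 bases (10.71%, against 0.64% and 6.21%), whereas BGI_novel_G003859 and BGI_novel_G003203 had 2529 and 1202. Per kilobase of gene, the level in the higher hybrid ran from 0.935 to 899.2 CPM per kb (median 2.78) in the genes higher in Hybrid G and from 1.098 to 312.3 (median 5.35) in those higher in Hybrid F. Cfor_05466 and Cfor_04911 had the highest values.

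The threshold cut through a continuous range. Just inside it, the smallest ratio of CPM + 1 over the 6 pairs was 2.05 in BGI_novel_G003738 and 2.11 in BGI_novel_G002651 (higher in Hybrid G), and 2.03 in BGI_novel_G002440 and 2.05 in BGI_novel_G000549 (higher in Hybrid F). Just outside it, the ratio was 1.996 in BGI_novel_G002740 and 1.96 in BGI_novel_G003851 (higher in Hybrid G), and 1.96 in BGI_novel_G003691 and 1.94 in BGI_novel_G000541 (higher in Hybrid F). BGI_novel_G002740 averaged 23.4 CPM in Hybrid G and 8.01 CPM in Hybrid F, with 16.6 CPM in C. gestroi and 15.2 CPM in C. formosanus. BGI_novel_G000541 averaged 12.9 CPM in Hybrid G and 33.0 CPM in Hybrid F, with 11.4 CPM in C. gestroi and 36.3 CPM in C. formosanus. By the smallest ratio of CPM + 1 these near misses were close to the genes just inside, but mean CPM without the added 1 differed more widely. In Hybrid G and Hybrid F, BGI_novel_G002651 averaged 1.82 and 0.0404 CPM, and BGI_novel_G002440 0.0777 and 2.27 CPM. BGI_novel_G003738 averaged 7.56 and 2.01 CPM, and BGI_novel_G000549 0.982 and 4.84 CPM.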

How the data were processed

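Trizol and silica membranes were used to extract RNA of heads and gut-free bodies, and mRNA libraries were sequenced, per the labels' protocols. Bowtie2, RSEM and DESeq2 are named in the submitters' processing notes, without versions or roles; a build or annotation is not given in the sources used here. Expected counts per gene (27.7% of values not whole) and a gene length were deposited by the authors. Such counts divide reads that match several genes, which leaves genes with near-identical copies uncertain. NA (8.22% of values) was read as no reads, which no source states.

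All columns of a group were identical, so the 67 samples gave 24 profiles, and 0 columns were without a sample. CPM used column sums, so orders of tissues and stages described from CPM were not rescaled by TMM factors. For tests, counts were rounded, filtered with filterByExpr, scaled by TMM and fitted with edgeR 4.0.16 (glmQLFit robust, glmQLFTest) in R 4.3.3. The species and tissue fits had 5 residual degrees of freedom and the stage fit 6, with tissue, stage or species combinations as blocks. The SE was taken as the size of the log2 fold change over the root of its F statistic. DESeq2 1.42.0, RLE scaling, other thresholds and leaving out each pair or profile were alternatives. Ratios of pooled counts have exact 95% intervals from the binomial distribution, and intervals and the floor of 3 counts cover counting error only.

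The 28 genes and the gene lists were chosen with earlier results of these data known. The IDs come without names, so the gene lists (molting hormone, juvenile hormone, cuticle, detoxification, immunity, chemosensory, digestion, mitochondrial, ribosomal, histone and transposable element genes) and cell type markers matched 0 genes. Genes were named by rule: per class of at least 5 genes, the 2 per direction with the largest smallest ratio. Over all, the rule took the 2 per direction with the largest smallest ratio, the highest mean CPM, and the values nearest the threshold on each side. Per parental contrast, it took, each way, the 2 calls of largest fold change with a mean log2 CPM of at least 3. The others were named after their values were seen.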

Additional observations from a re-analysis of the deposited data

Results flagged for a closer look

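In each of the 28 genes the 6 differences of log2(CPM + 1) between Hybrid G and Hybrid F were searched for a value far from the other 5. Such a gap (past Dixon's 95% critical value) occurs by chance in about 1 in 20 genes, and 2 genes had one. In Cfor_12053 the inter-molt body stood at 4.28, with 18.4 CPM in Hybrid G and no count in Hybrid F, while C. gestroi had no count and C. formosanus 15.8 CPM. In Cfor_12812 the pre-molt body stood at -2.24, with 26.4 CPM in Hybrid G and 128 CPM in Hybrid F, while C. gestroi had 43.4 CPM and C. formosanus 131 CPM.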

How the results depend on the processing

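The number of genes found depended on the threshold and on the count added. A 1.5-fold threshold gave 32 genes higher in Hybrid G and 46 higher in Hybrid F, a 3-fold threshold 7 and 2, and CPM + 2 in place of CPM + 1 gave 10 and 7. Without each pair in turn the numbers were 17 to 22 and 11 to 16. Of the places against the parents, genes with Hybrid G near C. gestroi and Hybrid F near C. formosanus numbered 2 with a margin of 0.3 and 2 with body profiles alone, a choice added after the data were seen. With a margin of 1, Hybrid G near C. formosanus and Hybrid F near C. gestroi held for 17 genes, and 2 lay outside both parents.

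Between the species, 1 gene higher in Hybrid G was called higher in C. gestroi in a fit of bodies alone. The fits of bodies or heads alone hold all 4 crosses, hybrids included. Without each pair, 1 to 2 of these genes were higher and 13 to 14 lower in C. gestroi, 4 to 5 and 5 to 6 of those higher in Hybrid F, and 5527 to 6268 of all genes were called. BGI_novel_G003852 was not called in bodies alone (log2 2.85) or without the pre-molt body (3.54). BGI_novel_G000973 was called with DESeq2 (-3.37), all 24 profiles (-2.35) and heads alone (-2.74).

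For pre-molt against inter-molt, RLE scaling called 1 of the 28, DESeq2 3 and all 24 profiles 5, and single profiles left out gave 0 to 3. Over all genes, DESeq2 called 3534, all 24 profiles 6063 and single profiles left out 1570 to 2675, against 2324. For post-molt against inter-molt, all 24 profiles called 6 and single profiles left out 1 to 4. Over all genes, DESeq2 called 3526, all 24 profiles 5785 and single profiles left out 1256 to 2469, against 2149. For post-molt against pre-molt, DESeq2 called 2, all 24 profiles 4 and single profiles left out 1 to 2. Over all genes, DESeq2 called 2073, all 24 profiles 3819 and single profiles left out 594 to 1312, against 1077. For head against body, DESeq2 called 2, all 24 profiles 4 and single pairs left out 0 to 2. Over all genes, all 24 profiles called 5764 and single pairs left out 1729 to 2555, against 2700. Fits of all 24 profiles have more degrees of freedom and include the hybrids that chose the genes. The causes of the other shifts were not tested. For C. gestroi against C. formosanus, no log2 fold change of the 28 genes changed sign in the alternatives run. Signs of genes not called between stages or tissues were not compared over alternatives. No paired analysis was possible because the columns of a group were identical, so replicate numbers carried no values of their own. Depth limits the genes near 1 CPM, where a profile without a count allows up to 0.3042 CPM.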

Other observations

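Between Cfor_01127, higher in Hybrid G, and Cfor_01129, higher in Hybrid F, lies the number Cfor_01128, named here after its values were seen. It averaged 13.9 CPM in Hybrid G and 15.4 CPM in Hybrid F, with 21.6 CPM in C. gestroi and 0.0105 CPM in C. formosanus. Cfor_01127 and Cfor_01129 were lower in C. gestroi, so these 3 consecutive numbers held 3 arrangements of the crosses: hybrids apart with Hybrid G high, hybrids alike, and hybrids apart with Hybrid F high. Other pairs among the 28 with numbers at most 20 apart were BGI_novel_G000008 and BGI_novel_G000020 (both higher in Hybrid G), BGI_novel_G000534 and BGI_novel_G000549 (both higher in Hybrid F), and BGI_novel_G003859 (higher in Hybrid G) and BGI_novel_G003852 (higher in Hybrid F). BGI_novel_G000541, which fell just short of the threshold with Hybrid F high, has a number between those of BGI_novel_G000534 and BGI_novel_G000549. Whether the numbers follow position in the genome is not given in the sources used here.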
